A study of Mus musculus with 18 samples.

Results

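Expression of 39 genes for ribosome biogenesis and nucleotide synthesis was followed in the distal colon of mice that develop colitis without interleukin 10. The members were chosen by symbol for a shared role: the transcription factor gene Myc, 31 nucleolar genes, and 7 genes of purine and pyrimidine synthesis. They were picked from the 16321 genes of the deposited tables with results of these libraries in view, although no single contrast was named, so their levels and counts below are descriptions of a chosen set. All 39 were measured, and all 39 were among the 16300 genes that passed the filter on low counts. The choice had no expression threshold, so no member lies just inside or outside one.

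The tissue was taken from BALB/c animals, 18 in total and 3 per group, and every mouse was sampled at 1 age. The 6 groups were wild-type mice at week 6 of life and Il10KO mice at weeks 6, 8, 10, 12 and 14. The labels give the knockout as a whole-animal genotype and name no allele, and there was no wild type after week 6, so that the disease and normal growth cannot be told apart in the later groups. Polyadenylated RNA of biopsies about 0.5 cm long was sequenced, and these hold epithelium, muscle, stroma and immune cells together.

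Ribosomes are built in the nucleolus. RNA polymerase I transcribes the precursor of the ribosomal RNAs, small nucleolar ribonucleoproteins modify it, and separate sets of assembly factors cut and fold it into the small and the large subunit. MYC is a transcription factor known for driving many of these genes together with those for the nucleotides that the new RNA needs, and in the intestine it is known for its role in crypt growth and in activated immune cells.

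The sites at which MYC could bind were read first. With its partner MAX, the factor binds the E-box CACGTG, a palindrome that reads the same on both strands. Windows from 250 bases before to 50 bases after the start of a gene were given by RefSeq (build GRCm38.p6) for 33 members, and not for Myc, Fbl, Npm1, Rrp12, Rrs1 and Bop1. For a gene with several windows, a match in any of them counted. The 6 letters stood in a window of 9 of the 33 members (27.3%). They did so for 1342 of the 12302 genes tested for expression that had a window (10.9%), and for 2187 of 27025 genes in all (8.1%). By role, 7 of 26 nucleolar members and 2 of 7 nucleotide synthesis members with a window held them. A match is a description of the sequence and not a bound site. The 9 sites are printed 5′ to 3′ on the strand of the gene, each as 30 bases with the E-box in capitals, because they are the letters that the factor known for driving these genes binds.
Tsr1: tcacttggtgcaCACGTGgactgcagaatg
Utp20: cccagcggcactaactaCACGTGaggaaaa
Wdr43: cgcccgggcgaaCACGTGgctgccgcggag
Nop2: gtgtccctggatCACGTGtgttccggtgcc
Pes1: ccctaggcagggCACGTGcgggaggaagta
Nle1: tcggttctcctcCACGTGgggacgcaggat
Mybbp1a: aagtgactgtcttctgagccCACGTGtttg
Impdh2: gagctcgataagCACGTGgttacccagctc
Paics: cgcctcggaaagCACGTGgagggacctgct
They lie in GRCm38 at chr11:74898092-74898121, chr10:88826765-88826794, chr17:71616220-71616249, chr6:125131811-125131840, chr11:3963965-3963994, chr11:82908355-82908384, chr11:72441347-72441376, chr9:108560314-108560343 and chr5:76951087-76951116, in the order printed. The Utp20 and Nle1 sites are on the reverse strand and the others on the forward strand. The E-boxes of Nop2, Impdh2 and Paics begin 60, 110 and 203 bases before the start, and the other 6 begin between base 3 and base 41 after it.

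The whole 250 bases before the start of Nop2, which encodes a methyltransferase of the large ribosomal RNA, show how such a site sits in a GC-rich promoter (chr6:125131633-125131882, forward strand). Nop2 was picked for printing after its values were seen, as the member whose E-box lies closest before its start.
Nop2: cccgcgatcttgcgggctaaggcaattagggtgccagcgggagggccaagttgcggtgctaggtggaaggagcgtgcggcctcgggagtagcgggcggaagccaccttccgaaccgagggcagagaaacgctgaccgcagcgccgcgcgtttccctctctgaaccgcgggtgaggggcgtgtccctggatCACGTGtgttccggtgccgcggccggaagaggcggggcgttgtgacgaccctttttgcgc
Ppat and Paics, which both encode enzymes of purine synthesis, lie head to head. Ppat (chromosome 5, 76913249 to 76951578, reverse strand) and Paics (chromosome 5, 76951307 to 76967509, forward strand) overlap by 272 bases at their 5′ ends, and the Paics site lies outside that overlap, within the annotated Ppat gene. Altogether 16 members overlap a protein-coding gene on the opposite strand, by 5 to 12804 bases. Whether the reads kept their strand is not given in the sources used here, so counts in those overlaps may be shared.

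Library totals were 26495521 to 35497101 estimated counts, of which the members took 0.116% to 0.344%. Il10, the targeted gene, had 1, 0 and 3 estimated counts in the wild type and 0 in all 15 Il10KO libraries, where a 0 allows up to 3 counts, so no single label could be checked by it. The RNA integrity number (RIN) was 8.4 to 9.3 in 16 libraries, and 6.5 and 5.8 in week 14 replicates 2 and 3. Epithelial markers (9 genes) summed to 8941 to 18530 CPM and smooth muscle markers (7 genes) to 1354 to 9188 CPM over the 18 libraries, so both parts of the labelled tissue were present. CPM, the usual unit of depth-normalised counts, are counts scaled to a common library size (TMM), and changes are log2 fold changes ± SE from 1 edgeR quasi-likelihood fit of all 18 libraries, n = 3 a group. A change is called at a Benjamini-Hochberg adjusted p under 0.05 over all genes. The SE rests on a spread shared by all groups.

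The median member was highest at week 10. Against Il10KO week 6, 17 of 39 members rose and 0 fell, where 14.6% of all genes rose and 9.48% fell, and the median member stood 0.72 higher on the log2 scale against 0.015 for all genes. Rises reached all 3 box C/D genes, 2 of 3 box H/ACA genes, 2 of 4 nucleolar chaperones, 3 of 8 small subunit and 6 of 9 large subunit factors. They did not reach the 4 genes of RNA polymerase I and its cofactors, the 4 purine genes, Myc, or the pyrimidine genes Cad and Umps. Of the members with an E-box in their window, Wdr43 and Nle1 were called in this fit. Tsr1, Utp20, Nop2, Pes1, Mybbp1a, Impdh2 and Paics were not. In 17 members every week 10 library lay above every week 6 library, and in 1, Paics, every one lay below, against 27.5% and 30.3% of all genes. The count was 10, 9 or 11 without week 6 replicate 1, 2 or 3, and 9 with cage as a factor.

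**Figure D1:**
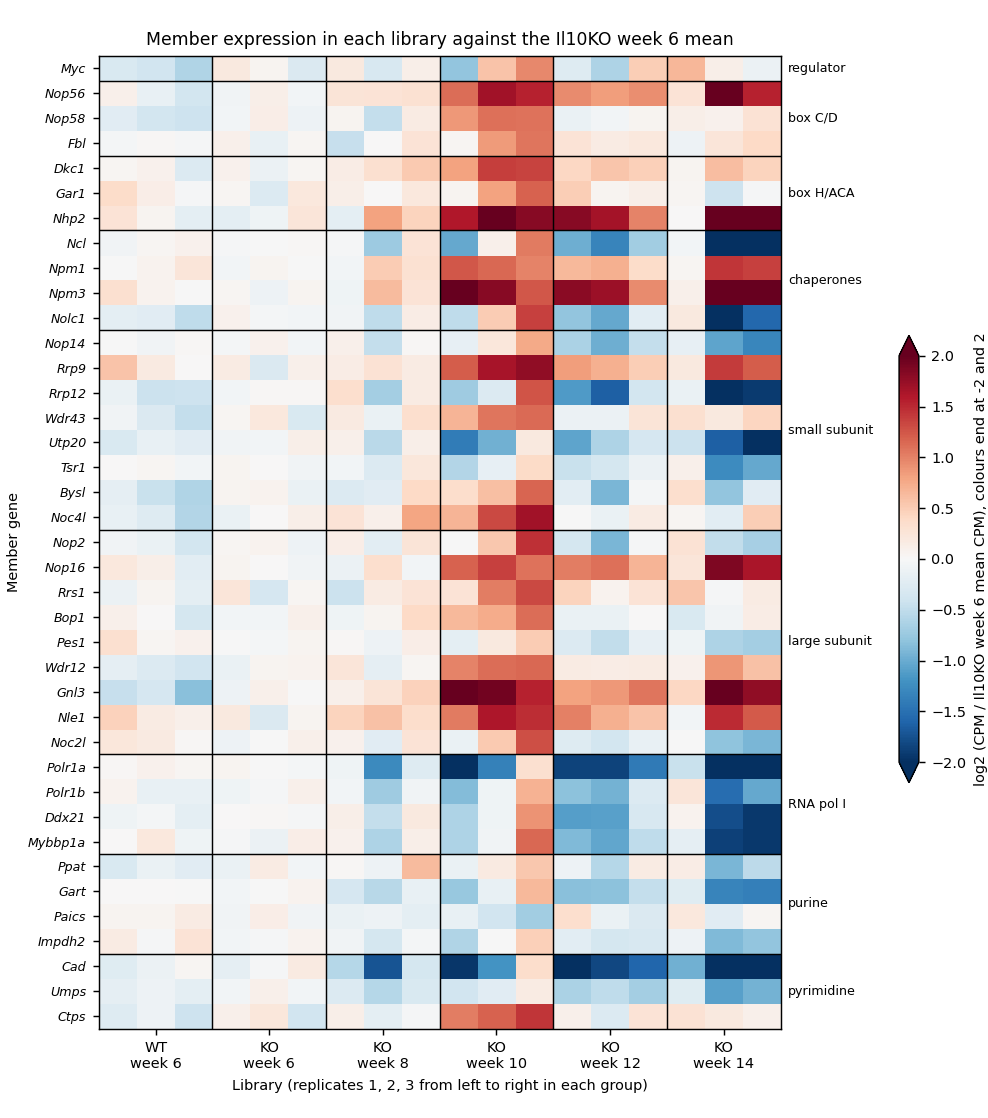
Each row is a member and each column a library, with 3 replicates in each of the 6 groups; colour is the log2 ratio of CPM to the mean of the 3 Il10KO week 6 libraries, and colours end at -2 and 2. Week 10 has the most members above week 6, most of all in replicate 3 (38 of 39), and week 14 replicates 2 and 3 show deep rises and falls side by side.

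The 3 mice of week 10 differed from each other. Counted against the week 6 mean, 19, 27 and 38 of the 39 members were above it in replicates 1, 2 and 3, with median log2 ratios of -0.004, 0.58 and 1.12. Replicate 3 was the highest of the 3 in 29 members, and replicate 1 was the lowest in 34. Those libraries had RINs of 8.5, 8.7 and 9 and lipocalin values, the labels' measure of gut inflammation, of 554, 339.5 and 364 ng/g. Neutrophil markers (8 measured genes) ran the other way, at 6116, 1222 and 838.5 CPM in sum, and the 21 proliferation genes summed to 1478, 1314 and 2081 CPM. Their part in the differences was not tested.

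Myc encodes the factor itself (chromosome 15, 61985391 to 61990374, forward strand, GENCODE M21 on GRCm38). It stood at 28.9, 27.4 and 23.5 CPM in the wild type, 40.96, 36.99 and 29.2 in Il10KO mice at week 6 and 41.1, 28.7 and 38.8 at week 8. Later it stood at 20.7, 52.8 and 69.5 CPM in the week 10 mice, 29.8, 23.4 and 50.2 in the week 12 mice and 56.9, 38.6 and 32.9 in the week 14 mice. In CPM week 10 held both the lowest and the highest value of any library, and the groups overlapped throughout among the Il10KO mice. In the deposited TPM, which correct for length, the lowest values were 8.32 and 9.15 in week 14 replicates 2 and 3, the libraries of low RIN. Week 10 replicate 1 stood there at 10.95 TPM. Its change at week 10 was 0.42 ± 0.37 (SE, adjusted p = 0.383) by the edgeR quasi-likelihood test, which was not called, and without replicate 3 it was 0.04. Across the 5 Il10KO ages Myc had the largest p of all members (adjusted p = 0.697).

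**Figure D2:**
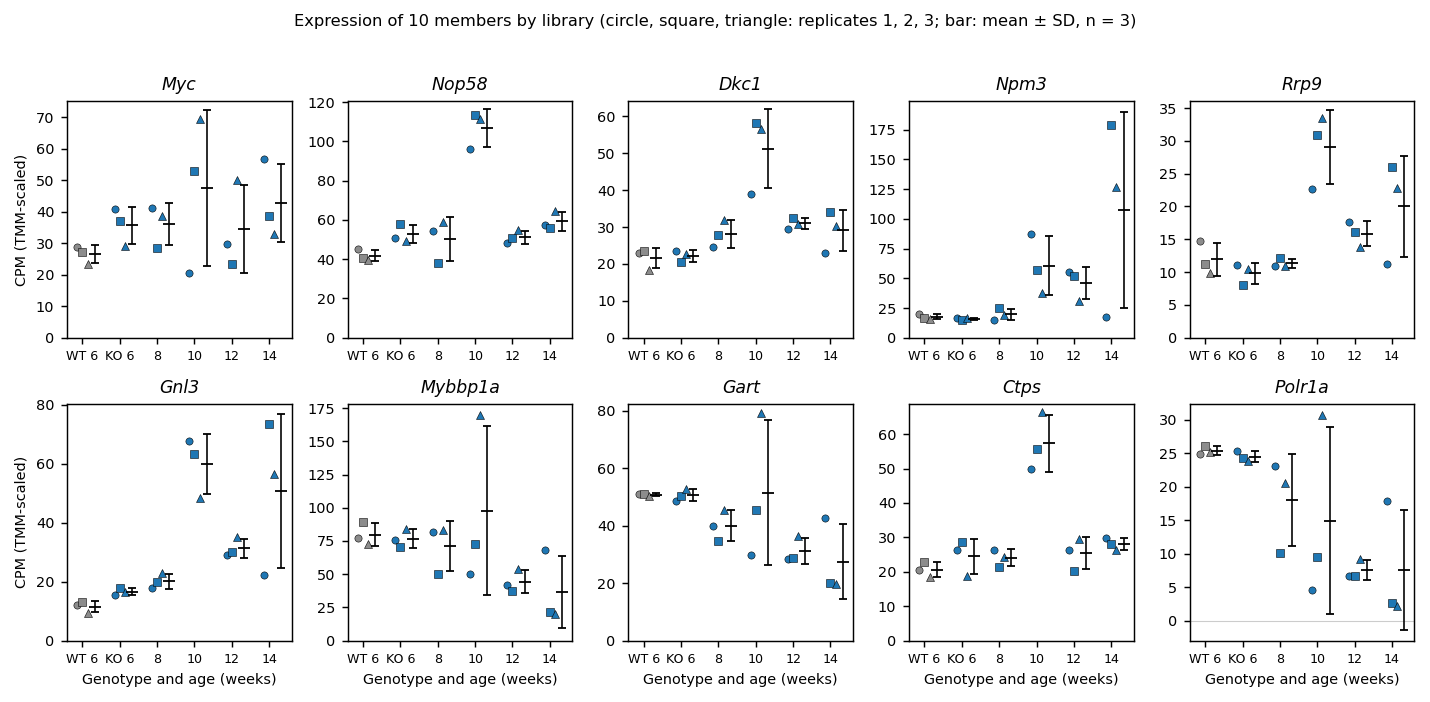
CPM of 10 members by genotype and age in weeks; each symbol is a library (circle, square and triangle for replicates 1, 2 and 3) and the bar beside it the mean ± SD of 3. In CPM, Nop58, Dkc1, Rrp9 and Ctps are clear of week 6 in all 3 week 10 libraries, whereas Myc, Mybbp1a, Gart and Polr1a span their week 6 range there.

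Box C/D ribonucleoproteins guide methylation of ribosomal RNA. Nop58 (chromosome 1, 59684971 to 59719044, forward strand), a core protein of these particles, stood at 45.2, 40.8 and 39.5 CPM in the wild type, 50.9, 57.9 and 49.1 in Il10KO mice at week 6 and 54.5, 37.8 and 58.9 at week 8. Its later values were 95.8, 113 and 111 CPM in the week 10 mice, 47.98, 50.6 and 54.7 in the week 12 mice and 57.2, 55.7 and 64.6 in the week 14 mice. In CPM all 3 week 10 libraries lay above all others, and weeks 12 and 14 returned to the range of weeks 6 and 8 or just past it. The rise at week 10 was 1.02 ± 0.18 (SE, adjusted p = 0.00398), and the change from week 10 to week 12 was -1.06 ± 0.18 (SE, adjusted p = 0.0265), a fall. Its partner Nop56 rose by 1.46 ± 0.31 and the methyltransferase gene Fbl by 0.72 ± 0.25 at week 10 (adjusted p = 0.00908 and 0.0468, edgeR). Fbl had its week 10 values at 53.4, 94.1 and 110.1 CPM, with replicate 1 inside the week 6 range of 47.2 to 55.8. Neither the Nop58 nor the Fbl call held when each library's trend of counts on transcript length was removed, at 0.66 and 0.28 (adjusted p = 0.0634 and 0.502, edgeR). With that trend removed Nop58 stood at 40.2, 43.9 and 53.8 CPM at week 12, below the 58.2 to 71.1 of the week 6 knockouts. At week 14 it then stood at 66.0, 32.8 and 40.8 CPM.

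Box H/ACA particles guide pseudouridylation. Dkc1 (chromosome X, 75095854 to 75109777, forward strand), which encodes the pseudouridine synthase dyskerin, stood at 22.9, 23.6 and 18.4 CPM in the wild type, 23.5, 20.4 and 22.8 in Il10KO mice at week 6 and 24.6, 27.8 and 31.9 at week 8. From week 10 on it was at 38.9, 58.1 and 56.6 CPM in the week 10 mice, 29.6, 32.6 and 30.9 in the week 12 mice and 23.00, 34.01 and 30.4 in the week 14 mice. In CPM the week 10 libraries again exceeded all the others, and week 12 lay between weeks 6 and 10 with no overlap with either. In the deposited TPM, which correct for length, week 10 overlapped week 6. Dkc1 was there at 18.5, 24.9 and 35.4 TPM at week 10 against 21.9, 12.8 and 16.3 in the week 6 knockouts. The week 10 change was 1.20 ± 0.20 (SE, adjusted p = 0.00339). Nhp2, a small core protein of the particle, rose by 1.89 ± 0.56 (adjusted p = 0.0292), while Gar1 was at 0.75 ± 0.27 and was not called (adjusted p = 0.0518).

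Among nucleolar chaperones the members split. Npm3 (chromosome 19, 45747734 to 45749591, reverse strand), a histone chaperone related to nucleophosmin, had the largest week 10 change of all 39 members. It stood at 19.96, 16.8 and 15.9 CPM in the wild type, 16.4, 14.9 and 16.6 in Il10KO mice at week 6 and 14.97, 24.7 and 19.4 at week 8. The older groups had 87.3, 56.6 and 37.9 CPM in the week 10 mice, 55.6, 51.99 and 30.7 in the week 12 mice and 17.1, 179 and 127 in the week 14 mice. The change was 1.93 ± 0.56 (SE, adjusted p = 0.0275) at week 10 and 2.75 ± 0.57 (SE, adjusted p = 0.00616) at week 14, where replicate 1 was just above week 6 and replicates 2 and 3 were the highest of all libraries. The week 10 call was lost without week 10 replicate 1 (1.57, adjusted p = 0.112) or 2 (1.97, adjusted p = 0.054), and without any 1 Il10KO week 6 library (adjusted p = 0.0757 to 0.0851, edgeR). With the length trend removed both were called, at 1.20 and 0.98, and lacking week 14 replicates 2 and 3 the week 14 change was 0.10. Npm1, nucleophosmin itself, rose by 1.13 ± 0.28 at week 10 (adjusted p = 0.0167). Processed pseudogenes of Npm1, Npm3 and Impdh2 are annotated, so reads of these genes could be split between copies.

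Ncl encodes nucleolin, which binds the ribosomal RNA precursor and was one of the most abundant members. Its week 6 values in Il10KO mice were 282, 286 and 290.3 CPM. They spread to 141, 309 and 587 CPM in the week 10 mice, were 146, 115 and 178 in the week 12 mice and 277, 43.5 and 65.7 in the week 14 mice. Neither its week 10 change (0.27 ± 0.56 (SE, adjusted p = 0.714)) nor that of Nolc1 (0.65 ± 0.50 (SE, adjusted p = 0.31)), a nucleolar shuttling chaperone, was called. Only 26.8% of Ncl TPM lay in transcripts annotated as protein coding, on average over the libraries, since the estimates placed most of it on 1 retained-intron transcript. For Polr1a that share was 23.3%, and for the other 37 members it was 70.0% to 100%.

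Small subunit factors carried 3 calls at week 10. Rrp9 (chromosome 9, 106475963 to 106485424, forward strand), which encodes a protein bound to the U3 small nucleolar RNA, had 14.7, 11.2 and 9.92 CPM in the wild type, 11.01, 8.03 and 10.5 in Il10KO mice at week 6 and 10.9, 12.1 and 10.99 at week 8. Afterwards it had 22.7, 30.9 and 33.5 CPM in the week 10 mice, 17.6, 16.1 and 13.9 in the week 12 mice and 11.2, 26.02 and 22.8 in the week 14 mice. In CPM all 3 libraries of week 10 were above all of weeks 6 and 8. Week 12 was above the Il10KO libraries of weeks 6 and 8 but overlapped the wild type, since wild-type replicate 1 exceeded week 12 replicate 3. In TPM week 10 replicate 1 (14.6) was above the Il10KO week 6 libraries. It was below wild-type replicate 1 (18.8) and week 8 replicate 1 (15.4). The change was 1.56 ± 0.28 (SE, adjusted p = 0.00413) at week 10 and 1.02 ± 0.28 (SE, adjusted p = 0.0142) at week 14. The week 14 call was lost with the length trend removed (0.36, adjusted p = 0.193), without Il10KO week 6 replicate 2 (0.89, adjusted p = 0.0651), without week 14 replicate 2 (0.78, adjusted p = 0.0863) or 3 (0.91, adjusted p = 0.0619), and lacking both of the latter (0.19, edgeR). Noc4l and Wdr43, assembly factors of the small subunit precursor, rose by 1.28 ± 0.27 and 0.97 ± 0.21 at week 10 (adjusted p = 0.0078 and 0.00905, edgeR). The other 5 were not called: Bysl (0.75), Rrp12 (0.35), Nop14 (0.32), Tsr1 (-0.07) and Utp20 (-0.56).

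Large subunit factors had the most calls. Gnl3 (chromosome 14, 31012433 to 31019152, reverse strand) encodes nucleostemin, a nucleolar GTPase known from dividing and stem cells. It was at 12.1, 13.1 and 9.33 CPM in the wild type, 15.5, 17.8 and 16.5 in Il10KO mice at week 6 and 17.9, 19.8 and 22.8 at week 8. In older mice it was at 67.8, 63.3 and 48.3 CPM in the week 10 mice, 28.96, 30.1 and 35.01 in the week 12 mice and 22.1, 73.5 and 56.6 in the week 14 mice. Every library of weeks 10, 12 and 14 lay above every week 6 library, and the week 10 change was 1.85 ± 0.32 (SE, adjusted p = 0.00369). At week 14 it was 1.61 ± 0.32 (SE, adjusted p = 0.00616). Also called at week 10 were Nle1 (1.40), Nop16 (1.22), Wdr12 (1.08), Rrs1 (0.94) and Bop1 (0.85), with adjusted p of 0.00473 to 0.0274 in edgeR. Wdr12 and Bop1 encode subunits of 1 complex with PES1, and Pes1 itself was not called (0.20 ± 0.21 (SE, adjusted p = 0.458)); neither were Nop2 (0.79) and Noc2l (0.68).

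RNA polymerase I and its cofactors were not called at any age against week 6. Polr1a (chromosome 6, 71909053 to 71984935, forward strand), the largest subunit, had the lowest week 10 change of all members. It was at 24.8, 26.1 and 25.1 CPM in the wild type, 25.4, 24.3 and 23.8 in Il10KO mice at week 6 and 23.2, 10.2 and 20.6 at week 8. At later ages it was at 4.57, 9.59 and 30.7 CPM in the week 10 mice, 6.76, 6.76 and 9.24 in the week 12 mice and 17.9, 2.62 and 2.29 in the week 14 mice. Week 10 replicate 3 was the highest of all 18 libraries and replicate 1 among the lowest, all week 12 and 14 libraries lay below week 6, and the changes were -0.71 ± 0.68 (SE, adjusted p = 0.419), -1.69 ± 0.70 (SE, adjusted p = 0.126) and -1.67 ± 0.70 (SE, adjusted p = 0.0699) at weeks 10, 12 and 14.

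Mybbp1a (chromosome 11, 72441355 to 72451768, forward strand), a nucleolar protein named for binding MYB, held an E-box in its window. It had 77.2, 89.2 and 72.5 CPM in the wild type, 75.8, 70.4 and 84.1 in Il10KO mice at week 6 and 81.6, 49.9 and 82.96 at week 8. It then had 50.1, 72.8 and 170.0 CPM in the week 10 mice, 41.5, 37.4 and 54.03 in the week 12 mice and 68.1, 21.1 and 20.2 in the week 14 mice. The week 10 mean of 97.6 ± 63.7 CPM (SD, n = 3) rested on replicate 3, and the change of 0.35 ± 0.45 (SE, adjusted p = 0.556) became -0.32 without it. Ddx21, an RNA helicase of the nucleolus, and Polr1b, the second largest polymerase subunit, stood at week 10 log2 differences of 0.20 ± 0.46 and 0.06 ± 0.41.

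Of the 7 nucleotide synthesis genes 1 rose at week 10, a share near the 14.6% of all genes. Ctps (chromosome 4, 120539868 to 120570276, reverse strand) encodes CTP synthase, which makes cytidine from uridine nucleotides. It was measured at 20.5, 22.8 and 18.4 CPM in the wild type, 26.2, 28.6 and 18.7 in Il10KO mice at week 6 and 26.4, 21.5 and 24.2 at week 8. Its next values were 49.96, 55.6 and 66.3 CPM in the week 10 mice, 26.2, 20.3 and 29.6 in the week 12 mice and 29.9, 28.1 and 26.3 in the week 14 mice. As with Nop58, the week 10 libraries lay above every library of the other groups. The rise was 1.23 ± 0.20 (SE, adjusted p = 0.0033), the fall from week 10 to week 12 was -1.18 ± 0.20 (SE, adjusted p = 0.0277), and Ctps had the smallest p of the members across the 5 ages (adjusted p = 0.0102).

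Cad and Umps catalyse the first and last steps of uridine monophosphate synthesis. At week 10 they stood -0.60 ± 0.59 and -0.13 ± 0.22 from week 6, neither called, and at week 14 both fell, by 2.03 and 0.70 on the log2 scale (adjusted p = 0.0236 and 0.0259, edgeR). Cad was 38.9, 43.2 and 49.6 CPM in the week 6 knockouts, 9.54, 12.5 and 14.6 in the week 12 mice and 22.4, 3.68 and 5.87 in the week 14 mice, with no overlap between week 6 and either later age. Umps was not called at week 14 with the length trend removed (-0.13, adjusted p = 0.455), where Cad was (-1.16, adjusted p = 0.0268), and lacking week 14 replicates 2 and 3 neither was.

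Of the purine genes, Gart (chromosome 16, 91621186 to 91646952, reverse strand) encodes a trifunctional enzyme of the early pathway. It was at 51.04, 51.2 and 50.4 CPM in the wild type, 48.7, 50.3 and 52.9 in Il10KO mice at week 6 and 39.9, 34.5 and 45.4 at week 8. Its values in older mice were 29.9, 45.6 and 79.2 CPM in the week 10 mice, 28.4, 28.7 and 36.4 in the week 12 mice and 42.8, 20.2 and 19.6 in the week 14 mice. All week 8, 12 and 14 libraries were below week 6, and week 10 replicate 3 was above it. The change was 0.03 ± 0.32 (SE, adjusted p = 0.953) at week 10 and -0.88 ± 0.33 (SE, adjusted p = 0.0499) at week 14, the latter a call at the edge of the threshold that most alternatives lost. Ppat, the first enzyme of the pathway, Impdh2, the enzyme that leads to guanine nucleotides, and Paics stood at 0.22, 0.02 and -0.40 at week 10, none called. Ppat and Paics, which share their start region, had week 10 values of 22.1, 27.4 and 35.2 and of 90.4, 76.3 and 61.5 CPM, so that replicate 3 was highest for Ppat and lowest for Paics.

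**Figure D3:**
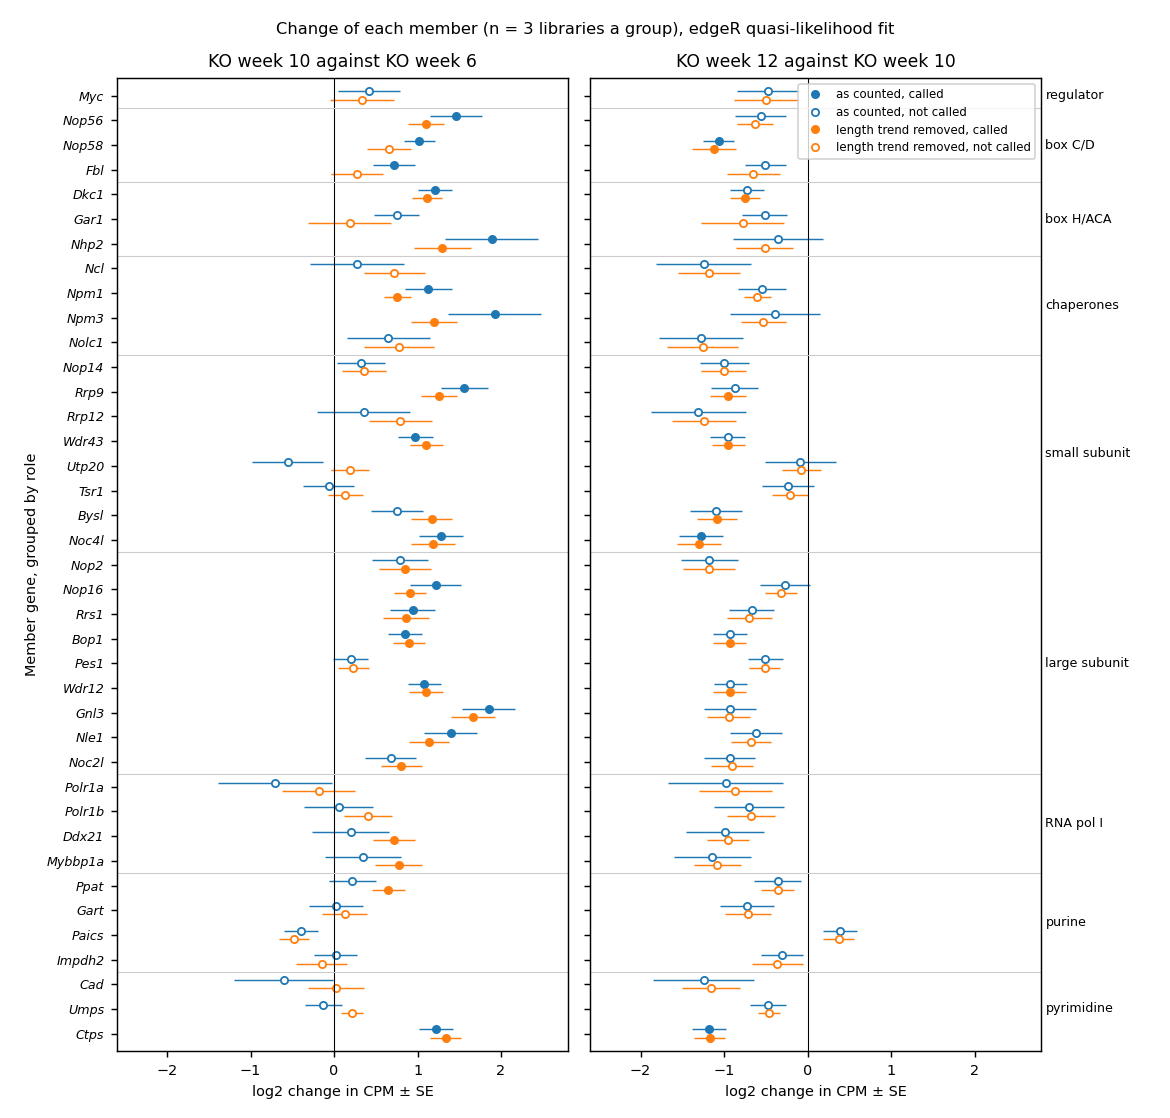
Log2 change ± SE of each member, by role, at week 10 against week 6 (left) and week 12 against week 10 (right), as counted and with each library's trend on transcript length removed; filled points passed the edgeR test. On the right 38 of 39 points lie below 0, with Paics the exception.

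At week 12 nearly all members stood lower than at week 10. Of the 39, 38 had a negative change, with a median of -0.73 against -0.006 for all genes. The test called 3 of them lower, Nop58 (-1.06 ± 0.18 (SE, adjusted p = 0.0265)), Ctps (-1.18 ± 0.20 (SE, adjusted p = 0.0277)) and Noc4l (-1.27 ± 0.27 (SE, adjusted p = 0.0489)), and 0 higher, where 0.239% and 0.209% of all genes were called. An unadjusted p under 0.05 in edgeR was reached by 21 members and by 2375 of the 16300 genes tested. DESeq2 called 10 members, and the share of all genes in that fit is not given here. In 17 members every week 12 library lay below every week 10 library, against 12% of all genes. Only Paics was higher (0.39 ± 0.20 (SE, adjusted p = 0.39)), and it was not called. The 3 calls are thin, since leaving out any 1 of the 3 week 12 libraries, week 10 replicate 3 or week 6 replicate 1 left 0, whereas 1 was called without week 6 replicate 3, 6 without week 14 replicate 2 and 14 without week 14 replicate 1.

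Against week 6, 0 members were called at week 12 in either direction, where 1.36% of all genes rose and 0.491% fell. An unadjusted p under 0.05 in edgeR was reached by 13 members and by 5278 of the 16300 genes tested, a like share. DESeq2 called 7 members, of which 5 were higher and 2 lower, and without week 14 replicate 1 edgeR called 14. The shares of all genes in those other fits are not given here, so their counts are not read as results about the members. In 11 members every library was above week 6 and in 16 every library was below, against 32.8% and 32.9% of all genes. Those above were led by Nhp2 (1.53), Npm3 (1.53) and Nop16 (0.94), and those below by Cad (-1.85), Polr1a (-1.69) and Ncl (-0.97). Weeks 10, 12 and 14 share the week 6 libraries, and both comparisons with week 10 share its libraries.

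At week 14 the set was divided. The test called 9 members higher and 4 lower than at week 6, where 24.5% of all genes rose and 8.56% fell, and the median member stood at -0.12 against -0.06 for all genes. The 9 were Nhp2 (2.79), Npm3 (2.75), Gnl3 (1.61), Nop56 (1.44), Nop16 (1.40), Npm1 (1.07), Nle1 (1.02), Rrp9 (1.02) and Wdr12 (0.56). Those that fell were Cad (-2.03), Utp20 (-1.24), Gart (-0.88) and Umps (-0.70). Replicate 1 had 3 members more than 0.5 log2 units from the week 6 mean, and replicates 2 and 3, the libraries of low RIN, had 28 and 27. Without replicates 2 and 3, 0 members were called, with 1 library left that is assumed to vary like the others, and without replicate 1 it was 10 higher and 17 lower. Without replicate 2 or replicate 3 alone 5 were called, and without week 6 replicate 1, 2 or 3 it was 8, 6 or 7. In the deposited TPM, where the median of all genes was lower at week 14, 5 of the 9 had a week 14 mean below that of week 6: Npm1 (169 against 214), Nop16 (12.9 against 15.1), Rrp9 (8.57 against 11), Wdr12 (5.28 against 8.64) and Nle1 (5.32 against 5.79).

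The direction of a member from week 8 on went with the length of its transcripts. Across the 39 members, Spearman's rho between log2 change from week 6 and transcript length was -0.58, -0.70, -0.85 and -0.82 at weeks 8, 10, 12 and 14. These are descriptions across genes that share libraries. Over 16064 genes with a length rho was -0.30, -0.41, -0.52 and -0.59, so a trend of the same sign ran through the whole table. With each library's trend removed rho over all genes was -0.01, -0.02 and -0.01 at weeks 10, 12 and 14, and over the members it was still -0.34, -0.38 and -0.35. At week 14 the median change went from 1.46 in the shortest 20% of all genes to -0.96 in the longest 20%. The 9 members that were higher at week 14 had a median transcript length of 1507 bases and the 4 lower ones of 4609 bases. At week 10 the 17 called members had a median of 1613 bases and the 22 others 3241 bases. Between weeks 10 and 12 the trend over all genes was small (rho -0.06), and among members rho was -0.38.

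**Figure D4:**
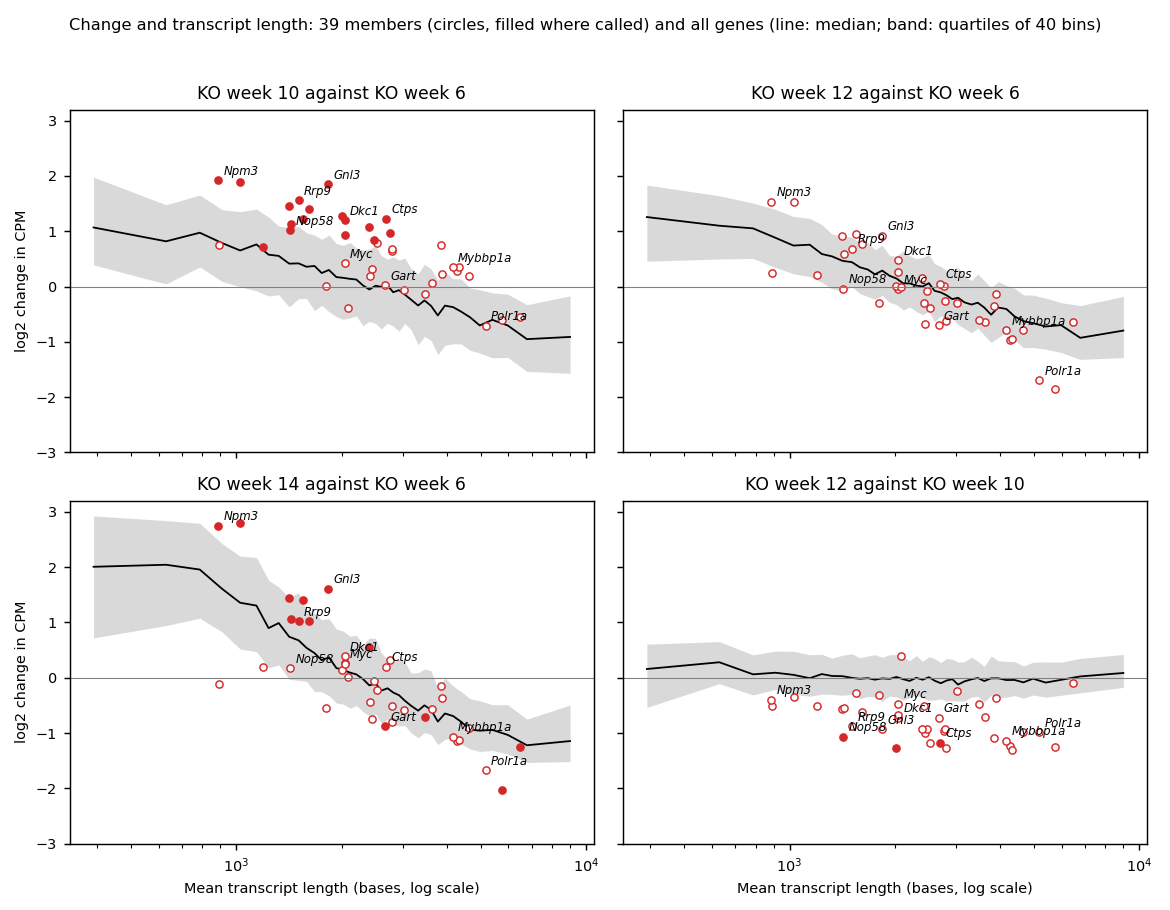
Log2 change against mean transcript length in bases (log scale) in 4 comparisons; circles are the 39 members, filled where called, and the line and band are the median and quartiles of all genes in 40 bins of length. At week 10 most members lie above the line, at weeks 12 and 14 they lie on both sides of it, and from week 10 to week 12 nearly all lie below it.

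When each library's trend on length was removed, an alternative chosen after the data were seen, the fit at week 10 covered more roles. It called 21 members higher and 0 lower, where 19.5% of all genes rose and 12.1% fell, with a median of 0.78 against 0.07 for all genes. Longer genes then passed, among them Bysl (1.17, adjusted p = 0.00503), Ddx21 (0.72, 0.0391), Mybbp1a (0.78, 0.046) and Ppat (0.65, 0.0256), by edgeR. Nop58 (0.66, adjusted p = 0.0634) and Fbl (0.28, 0.502) no longer did. At week 12 against week 10 it called 9 members lower and 0 higher, where 1.2% of all genes fell. At week 14 it called 7 higher and 1, Cad, lower, where 21.5% and 4.75% of all genes did so. The part of transcript length and RIN in the changes was not tested beyond these fits.

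Levels per length had another baseline. In TPM, a share of all transcripts corrected for length, Npm1 was the most abundant member at week 6 of Il10KO mice (214 TPM), followed by Impdh2 (98.5) and Ncl (98.1), and Rrp12 the least (3.8). The deposited TPM are not rescaled for the abundance of other transcripts, and the median of all genes stood at -0.42 at week 10 and -0.90 at week 14 against week 6 on the log2(TPM + 1) scale. Members stood at a median of 0.08 at week 10 on that scale, 0.50 above all genes, and limma called 7 of them higher. From week 10 to week 12 the median of all genes moved by -0.02 only, and that of the members by -0.60, although limma called 0 of them.

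At the earlier ages no member was called. For Il10KO against wild type at week 6 and for week 8 against week 6, edgeR called 0 members in either direction, with 0 at an unadjusted p under 0.05 and 0 by DESeq2. All-gene shares were 0% higher and 0% lower for genotype, and 0.0675% and 0% at week 8. Of the 16300 genes tested, 394 for genotype and 1146 at week 8 reached an unadjusted p under 0.05 in edgeR. In 12 members every Il10KO library at week 6 lay above every wild-type library and in 0 below, against 12.3% and 13.1% of all genes, with Gnl3 (0.53 ± 0.31) the farthest. Cage cannot be told apart from genotype, because all wild-type mice were in 1 cage that held no knockout.

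Across the 5 Il10KO ages together 17 members were called, where 27.4% of all genes were, and 23 with the length trend removed, where 27.3% were. With cage as a factor the count was 0, and without week 14 replicate 1 it was 37. Lipocalin differed among mice of 1 age, and its slope within age was called for 0 members and 0% of all genes. In edgeR 0 members and 119 of 16282 genes reached an unadjusted p under 0.05, and DESeq2 called 0 members. The smallest p belonged to Cad (slope -1.94 ± 1.17 log2 units per 10-fold of lipocalin, adjusted p = 0.89, edgeR).

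Genes of the same pathways outside the set were counted from lists drawn up with earlier results known, to be read against the 14.6% of all genes that rose and the 9.48% that fell at week 10. At week 10 against week 6, 15 of 30 other small subunit factors rose and 0 fell (median 0.61), and 17 of 36 other large subunit factors rose and 0 fell (median 0.71, edgeR). Among them were Mphosph10 (1.44 ± 0.27, adjusted p = 0.00477), a U3 particle protein, and Rsl1d1 (1.38 ± 0.26, adjusted p = 0.00528). Below week 6 stood, among others, Nol6 (-0.64 ± 0.71) of the small and Gnl3l (-0.56 ± 0.35) of the large subunit list, neither called. Other RNA polymerase I and III genes had 2 of 21 higher, a share below that of all genes, and 0 lower, the 2 being Polr1e (1.53 ± 0.33) and Taf1d (2.11 ± 0.63). Polr3b (-0.81 ± 0.42) and Ubtf (-0.48 ± 0.35) of that list stood below week 6, neither called. At week 12 against week 10, 1 small subunit and 0 large subunit factors of these lists were lower, with medians of -0.67 and -0.64.

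In nucleotide metabolism, against the same 14.6% and 9.48% of all genes, 4 of 12 other purine genes rose, with Adsl (0.81 ± 0.18, adjusted p = 0.0112) and Prps1 (1.17 ± 0.31, adjusted p = 0.0209) named by p, and 0 fell. Of 16 other pyrimidine and deoxynucleotide genes 6 rose and 0 fell, led by Rrm2 (1.85 ± 0.45, adjusted p = 0.0149), a ribonucleotide reductase subunit of dividing cells, and Dhodh (0.84 ± 0.23, adjusted p = 0.0226). One-carbon and serine synthesis, which feeds both pathways, had 5 of 10 higher, among them Mthfd2 (1.93 ± 0.40) and Phgdh (1.68 ± 0.34), and 0 lower. The 9 breakdown genes had 5 higher, with Xdh (3.24 ± 0.50) and Gda (2.15 ± 0.26), and 2 lower, Cda (-1.31 ± 0.38) and Dpyd (-2.76 ± 0.89). Impdh1 (-0.48 ± 0.24) of the purine list and Mthfd1 (-0.28 ± 0.53) of the one-carbon list stood below week 6, neither called. The members Gart, Paics, Impdh2, Cad and Umps were not called in the same comparison.

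The ribosomal proteins themselves, the cargo of the assembly factors, had another course. Of 79 cytosolic ribosomal protein genes 1 rose at week 10, where 14.6% of all genes did, and 77 rose at week 14, where 24.5% did, with medians of 0.95 and 2.37. Few were called at week 10, although the median was above the 0.72 of the members. At week 12 0 were called, where 1.36% of all genes rose and 0.491% fell. The median was then 1.22, against -0.08 for the members. The 79 genes had a median transcript length of 677 bases, shorter than that of any member. Their summed level was 23530 to 25650 CPM in the week 6 knockouts, 61460, 53800 and 28150 in the week 10 mice, and 28330, 240900 and 155700 in the week 14 mice. At week 10 the sum was lowest in replicate 3, where the members were highest. With the length trend removed 1 rose and 2 fell at week 10, and 30 rose and 2 fell at week 14, with medians of 0.18 and 0.51.

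MYC network genes moved in both directions, with 2 of 10 higher and 4 lower at week 10 (all genes 14.6% and 9.48%). Of these Mxd4, an antagonist of MYC, fell by 1.51 ± 0.20 on the log2 scale (adjusted p = 0.000948) and Mycn fell by 3.08 ± 0.71 from a level of 2.74 CPM, while Mxd1, another antagonist, rose by 1.25 ± 0.24. Of 13 other known MYC targets 10 rose and 0 fell, among them Hk2 (2.94 ± 0.33) and Srm (1.79 ± 0.27). Of 21 proliferation genes 6 rose, with Aurka (1.30 ± 0.35) and Birc5 (1.95 ± 0.57) named, and 0 fell. Mki67 (-0.39 ± 0.60) and Plk1 (-0.105 ± 0.46) stood below week 6, neither called.

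Cell type markers moved at week 10 as well, again beside 14.6% of all genes higher and 9.48% lower. Neutrophil markers rose in 6 of 8 genes and T cell markers in 4 of 8, B and plasma cell markers in 2 of 8 and macrophage markers in 2 of 9, the last 2 shares resting on 2 genes each, and 6 of 8 fibroblast and endothelial markers fell. Summed neutrophil markers went from 158 to 197 CPM at week 6 to 838.5 to 6116 at week 10 and 497 to 599 at week 12. In bulk tissue more cells of a type and more RNA per cell cannot be told apart, and the part of these markers in the members' rise was not tested. General epithelial markers rose in 1 of 9 and fell in 0 (median -0.21), and goblet cell markers were called in 0 of 6 (median -0.68). Differentiated colonocyte markers rose in 1 of 7 and fell in 2 (median -0.91), and neuron and glia markers fell in 3 of 6 (median -1.45). Crypt stem and progenitor markers rose in 1 of 7 and fell in 0 with a median of -1.40, and their sum was 58.7, 79.4 and 158.5 CPM at week 10 against 216 to 246 CPM in the week 6 knockouts, lowest in replicate 1, where most members were lowest too.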

How the data were processed

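RNA of 18 distal colon biopsies, 3 mice in each of 6 groups of genotype and age, was quantified by the authors with kallisto on mm10 after FastQC, per the submitters' processing notes; versions, annotation release and strand are not given in the sources used here. The deposited gene table holds estimated counts per symbol in whole numbers, and lists 16321 genes, the smallest sum over libraries being 50. The deposited TPM table covers the same genes, and the deposited transcript tables give estimated counts, TPM and transcript lengths, per the file headers. Of 119414 transcripts 97.75% matched GENCODE M21 (GRCm38), the source of positions and types. Transcript counts summed by these symbols came within 1 count of the gene table for 50.23% of the genes matched. In members they differed by up to 37.5 counts, and the reason was not tested. A gene's transcript length was the mean over its transcripts weighted by TPM.

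Counts were filtered (filterByExpr, 16300 genes), scaled by TMM and tested two-sided with edgeR 4.0.16 (quasi-likelihood F-test, 6 group means, Benjamini-Hochberg, threshold 0.05; R 4.3.3). The common biological coefficient of variation, over all 18 libraries, was 0.394. Compared were the genotype at week 6, each age against week 6, week 12 against week 10, all 5 ages together, and lipocalin (log10) as a slope within age. Steps were tested on simulated data. Members and lists were chosen with earlier results of these data known. All library values are given for Myc, for the member of each role with the smallest p across ages, and for the largest and smallest change at week 10. From each list at most 2 genes a direction are named, by p.

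Alternatives were DESeq2 1.42.0, limma 3.58.1 on log2(TPM + 1) and log2(TPM + 0.1), RLE scaling, no filter, the compared groups alone, RIN or cage as covariates, the replicate number as a block, voom with a weight per group, and single libraries or those of low RIN left out. Removal of each library's lowess trend of log2 CPM on length (span 0.3), its combinations, and a fit lacking week 14 were chosen after seeing the data. Python 3.11.15, pandas 2.3.3, NumPy 2.4.6 and matplotlib 3.10.9 were used.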

Additional observations from a re-analysis of the deposited data

Results flagged for a closer look

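The change from week 6 differed between weeks 10 and 12 for 3 members by the direct test of week 12 against week 10 (edgeR quasi-likelihood, Benjamini-Hochberg over all genes). The log2 difference was -1.06 for Nop58 (adjusted p = 0.0265), -1.18 for Ctps (adjusted p = 0.0277) and -1.27 for Noc4l (adjusted p = 0.0489). In each of them all 3 week 12 libraries lay below all 3 week 10 libraries.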

How the results depend on the processing

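With 3 mice a group, counts of called members varied between fits and with the libraries left out, and the reason was not tested. Shares of all genes called are given above only for the reported fit and for that with the length trend removed. Counts from the other fits, here and above, therefore describe how the calls varied and are not results about the members. For week 10 against week 6 (17 called), 7 were called by limma on log2(TPM + 1), 6 with a pseudocount of 0.1 and 9 with cage as a factor. For week 12 against week 6 (0 called), the count was 7 by DESeq2, 22 with the compared groups alone, 14 with RIN as a covariate, 22 by voom, 14 lacking the libraries of low RIN and 15 lacking week 14. With the length trend removed it was 6 lacking the libraries of low RIN and 1 without week 10 replicate 1 or 3. For week 14 against week 6 (13 called), it was 29 and 30 on the TPM scales (3 higher on each), 4 by voom, 8 with the length trend removed, and 0 with the compared groups alone, RIN, cage, or lacking the libraries of low RIN with or without the length trend. For week 12 against week 10 (3 called), it was 10 by DESeq2, 0 on both TPM scales, with the compared groups alone or with cage, 17 with RIN, 5 by voom, 14 lacking the libraries of low RIN or week 14, 9 with the length trend removed, 23 with it removed and low RIN lacking, and 16 and 0 with it removed and without week 10 replicate 1 or 3. Across ages (17 called), it was 0 with cage, 32 by voom and 31 with the length trend removed and without week 10 replicate 1.

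With each library left out in turn, counts ran from 9 to 21 for week 10, 0 to 14 for week 12 and 5 to 27 for week 14 against week 6, 0 to 14 for week 12 against week 10, and 12 to 37 across ages. They were 0 throughout for genotype, week 8 and lipocalin.

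Replicate numbers did not pair the samples, since same-numbered libraries correlated at a median of 0.016 (45 pairs) against -0.006 (90 other pairs), and 8 of 18 libraries correlated best with their own number. With a replicate block 16, 0, 11 and 2 members were called for weeks 10, 12 and 14 against week 6 and week 12 against week 10, and 14 across ages. Cage could not be fitted with genotype, and the lipocalin slope had no fit of compared groups alone.

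Changes of sign were followed in the 10 members given by library, and there befell members that were not called, apart from Rrp9 and Npm3 at week 14. At week 10 on the 2 TPM scales Myc was at -0.22 and -0.24, Mybbp1a at -0.23 and -0.25 and Gart at -0.51 and -0.54. Rrp9 at week 14 was at -0.34 and -0.38 on them, where all genes had shifted by -0.90 and -1.23. Gart at week 10, 0.03 in the reported fit, was at -0.001 with a replicate block, -0.082 by voom, -0.028 lacking the libraries of low RIN, -0.027 lacking week 14, and -0.002 without week 6 replicate 1. Over the libraries left out in turn it ran from -0.42 (without week 10 replicate 3) to 0.30, and Mybbp1a from -0.32 (without the same library) to 0.66. With the length trend removed Polr1a was at 0.20 without week 10 replicate 1, Myc at -0.088 and Gart at -0.30 without replicate 3, and Npm3 at week 14 at -0.016 lacking the libraries of low RIN. The cause was not tested.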

Other observations

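A single library of week 8 already showed the pattern by length. In week 8 replicate 2 (RIN 8.4, lipocalin 135.5 ng/g) 10 members stood more than 0.5 log2 units below the Il10KO week 6 mean and 4 above it, against 1 and 0 in replicate 1 and 0 and 3 in replicate 3. Spearman's rho between the members' log2 ratio to week 6 and transcript length was -0.79 in that library, -0.08 in replicate 1 and -0.34 in replicate 3 (39 members, a description across genes). Polr1a and Cad, among the longest members, were at 10.2 and 13.3 CPM there, against 23.8 to 25.4 and 38.9 to 49.6 CPM at week 6.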
